A study of Sus scrofa with 18 samples.

Results

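The retinal transcription factors MEF2D, NEUROD1 and RORA, 3 of 6765 genes named on the array, were followed across 18 pig retina arrays. The probe sets were all those of the deposited table whose only gene symbol in the platform annotation is one of these names. There were 4 of 24123: 1 for MEF2D, 2 for NEUROD1 and 1 for RORA. Of the 4, 3 passed the level filter and 1, the dimmer NEUROD1 probe set, did not.

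The retinas came from male Landrace x Large White piglets at postnatal day 38, 1 array per piglet. In the sialyllactose group, 9 piglets received pig milk replacer with sialyllactose, lactose joined to the sugar sialic acid. In the control group, 9 piglets received pig milk replacer without the supplement. All animals were bought when 3 days old and placed in the groups at random, and the 9 arrays per diet limit the precision of every value.

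All 3 genes encode proteins that bind DNA and switch other genes on. MEF2D belongs to the MEF2 family and in mouse photoreceptors works together with the homeobox factor CRX. NEUROD1 is a basic helix-loop-helix factor, needed in mice for photoreceptor survival and for the patterning of cone opsins. RORA is an orphan nuclear receptor that acts on cone opsin genes in mouse cones and on the clock gene ARNTL, also called BMAL1, in many tissues.

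All 8 photoreceptor genes with a named probe set passed the level filter, at widely different levels. The probe set of SAG, rod arrestin, lay above 99.9% of the 16799 tested probe sets in mean level and that of ARR3, cone arrestin, above 99.6%, while those of OPN1SW, GRK7, CNGA1, ABCA4 and PDE6C lay above 73.9%, 45.0%, 40.0%, 18.8% and 5.33%, and that of PROM1 above 96.6%. Markers of the adjoining pigment epithelium varied more than those of the retina proper: the summed linear level of its 5 tested markers ran from 82.1 to 309.8 with sialyllactose and from 69.0 to 361.2 in control, while that of 9 Mueller glia markers ran from 2813 to 3781 and from 2898 to 4052. Any 2 arrays correlated at 0.981 to 0.992 over the tested probe sets, and 0 pairs were identical throughout. Exactly equal values on different arrays were common in the deposited levels, in 34.1% of the tested probe sets, with 26 to 119 of the 16799 values equal in any 2 arrays. Among the probe sets used here RORA, the dim NEUROD1 probe set, SAG, PDE6C and ABCA4 each had 1 value shared by 2 arrays, and OPN1SW had 1 shared by 3. In whole retina, fewer cells of a type and less RNA per cell cannot be told apart.

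The first question was how strongly each factor was measured and how much piglets differed. Values are log2 RMA levels, in which a difference of 1 is a doubling. The brightness of a probe set also depends on its probes, so piglets and diets are compared within a probe set. Ranks and sums across genes describe probe set brightness and not relative amounts of RNA.

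MEF2D varied little between piglets. Its probe set ran from 7.20 through a median of 7.35 to 7.46 with sialyllactose, against 7.13, 7.31 and 7.65 in control. All 9 sialyllactose piglets lay within the control range, and the highest arrays, control replicates 6 (7.65) and 9 (7.56), were both controls. The mean was 7.35 ± 0.08 with sialyllactose and 7.38 ± 0.16 in control (SD, n = 9 each). The pooled SD within diets was 0.13, larger than that of 31.1% of the tested probe sets.

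NEUROD1 was measured by a bright and a dim probe set. The bright one ran from 5.11 through 5.52 to 6.27 with sialyllactose, against 5.20, 5.57 and 5.69 in control. The groups overlapped, but 2 sialyllactose piglets stood above every other animal, replicate 9 at 6.27 and replicate 7 at 6.22, while the other 7 lay between 5.11 and 5.58. Sialyllactose replicate 8 was the lowest of all 18. The mean was 5.58 ± 0.41 with sialyllactose and 5.51 ± 0.16 in control (n = 9 each), and the pooled SD of 0.31 exceeded that of 96.1% of the tested probe sets.

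The dim NEUROD1 probe set had a mean of 1.04 ± 0.12 with sialyllactose and 1.08 ± 0.16 in control, under the level filter of 1.48. The high arrays of the bright probe set did not stand apart together in it. Sialyllactose replicate 7 was at 1.17, above the diet median of 1.01 and next to the highest, replicate 8 (1.23). Replicate 9 was at 0.92, below that median. Across arrays the pair of probe sets had a Pearson r of -0.14 with sialyllactose and -0.70 in control, given as a description. What follows on NEUROD1 therefore rests on the bright probe set alone.

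RORA varied widely between piglets. Its probe set was the dimmest of the 3 tested, with a mean of 3.35 that lay above 40.4% of the tested probe sets. The share was 95.8% for MEF2D and 79.7% for the bright NEUROD1 probe set. The RORA probe set ran from 2.98 through 3.17 to 3.61 with sialyllactose, against 2.91, 3.53 and 3.99 in control. Of the sialyllactose piglets, 7 lay below the control median, 1 at it and 1 above it, but all 9 stayed within the control range. The highest array was control replicate 2 (3.99) and the lowest control replicate 1 (2.91). The mean was 3.23 ± 0.22 with sialyllactose and 3.46 ± 0.32 in control (n = 9 each), and the pooled SD of 0.27 exceeded that of 93.4% of the tested probe sets.

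**Figure D1:**
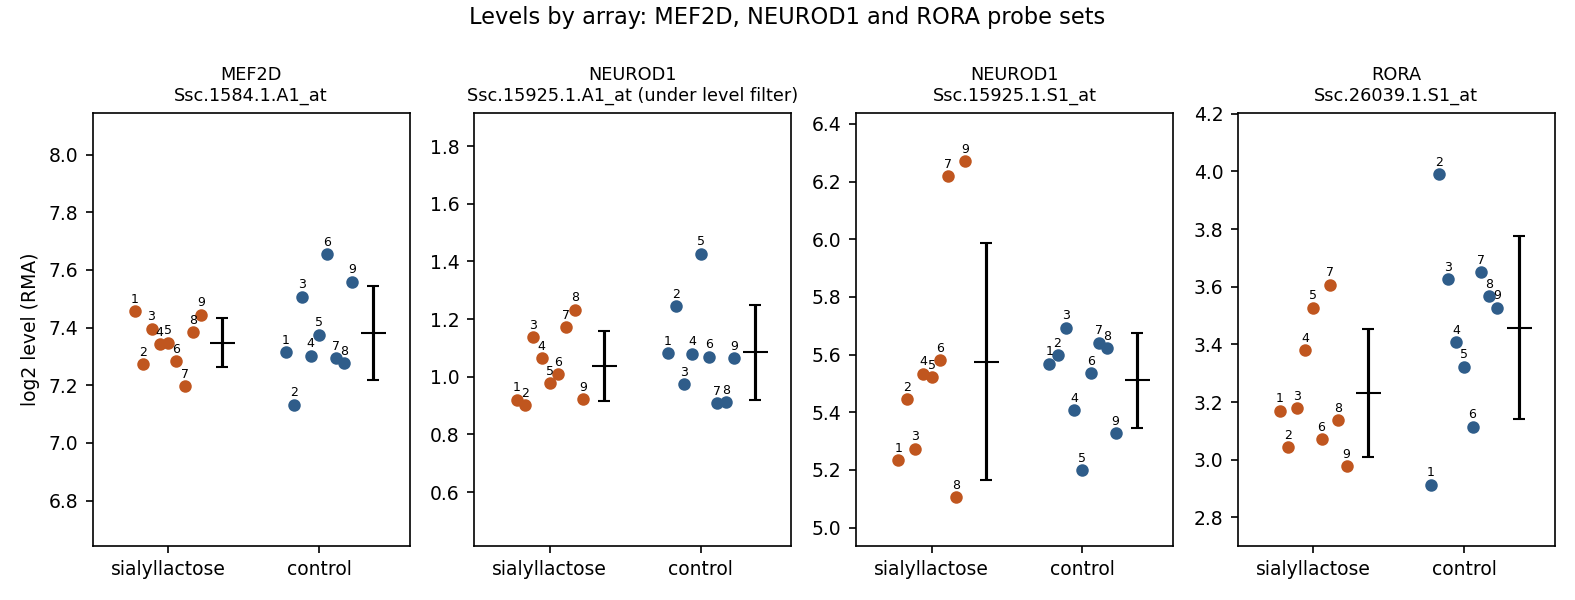
Log2 RMA level of the 4 probe sets on each of 18 arrays, sialyllactose to the left of control, with the replicate number at each point and the mean ± SD as black bars; each panel spans the same height on the log2 scale. MEF2D stayed within 7.13 to 7.65, 2 sialyllactose piglets stood at 6.22 and 6.27 in the bright NEUROD1 probe set, and the RORA ranges overlapped.

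The second question was whether the factors differed between diets. Differences are sialyllactose minus control from limma, fitted on all 16799 tested probe sets with Benjamini-Hochberg adjustment. RORA had the largest of the 3 differences, -0.23 (95% interval -0.47 to 0.02), which corresponds to a fold of 0.855 (interval 0.722 to 1.01). It did not pass the test (limma adjusted p = 0.783, unadjusted p = 0.0683), and a two-sided exact permutation of the diet labels gave p = 0.098. The difference was -0.16 without control replicate 2 and -0.29 without control replicate 1. In the latter fit the 95% interval was -0.52 to -0.07 (limma unadjusted p = 0.0125, adjusted p = 0.752). The interval also lay below 0 without sialyllactose replicate 5 or 7 or control replicate 6. It crossed 0 when any other single array was left out, and no such fit passed after adjustment.

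MEF2D differed by -0.03 (95% interval -0.16 to 0.10; limma adjusted p = 0.960), a fold of 0.978. In this fit the interval of the fold ran from 0.893 to 1.07. Without control replicate 6 the difference was 0.002.

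NEUROD1 differed by 0.07 (95% interval -0.21 to 0.34; limma adjusted p = 0.961), a fold of 1.05 with an interval from 0.864 to 1.27. The sign rested on the 2 high sialyllactose arrays: without replicate 7 the difference was -0.01, and without replicate 9 it was -0.02. The dim NEUROD1 probe set, fitted with no level filter, differed by -0.05 (95% interval -0.19 to 0.09).

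None of the 3 factors was called. The fit called 0 of all 16799 probe sets, a percentage of 0, with a lowest adjusted p of 0.691. The unadjusted p was under 0.05 for 1059 of them, and for none of the 3 factors.

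The spread of NEUROD1 was compared after its values had been seen. The mean absolute deviation from the diet median was 0.283 with sialyllactose and 0.121 in control. That difference did not pass limma on absolute deviations (adjusted p = 0.999, unadjusted p = 0.0987) nor a two-sided exact permutation of the diet labels (p = 0.143). For RORA the deviations were 0.163 with sialyllactose and 0.231 in control, and for MEF2D 0.065 and 0.121 (exact permutation p = 0.445 and 0.227). The same fit called 0% of all probe sets, and 454 had an unadjusted p under 0.05.

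Photoreceptor genes and partner factors gave the setting for these values. Of 56 photoreceptor genes listed, 8 had a named probe set and all 8 were tested. None was called in either direction. Means were higher with sialyllactose for 7 and lower for 1, while 46.6% of all tested probe sets had higher means. The median difference was 0.06, beside -0.01 over all tested probe sets. The rod channel subunit CNGA1 averaged 3.47 ± 0.21 with sialyllactose and 3.19 ± 0.45 in control, the cone opsin kinase GRK7 3.70 ± 0.19 and 3.52 ± 0.30, and SAG 10.56 ± 0.17 and 10.66 ± 0.10 (n = 9 each). Their limma adjusted p lay between 0.783 and 0.841.

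A list of 85 names of other factors held MEF2, NEUROD and ROR relatives, dimer partners, corepressors, clock genes and retinal regulators. ARNTL was on it under both of its names. Of these, 25 were tested and none was called, with 12 higher and 13 lower means and a median difference of -0.01. The smallest p belonged to ID1, an inhibitor that keeps helix-loop-helix partners from binding DNA, at 3.93 ± 0.28 with sialyllactose and 4.16 ± 0.28 in control, a difference of -0.23 (95% interval -0.48 to 0.01; limma adjusted p = 0.783). ID4, of the same family, differed by -0.07 and HDAC5, a corepressor of MEF2 factors, also by -0.07. Among clock genes NFIL3 differed by 0.10, CRY2 by 0.09 and PER1 by 0.07. MEF2A, the MEF2 relative on the list with a tested probe set, differed by -0.02, and ARNTL by 0.06, and neither passed the limma test.

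**Figure D2:**
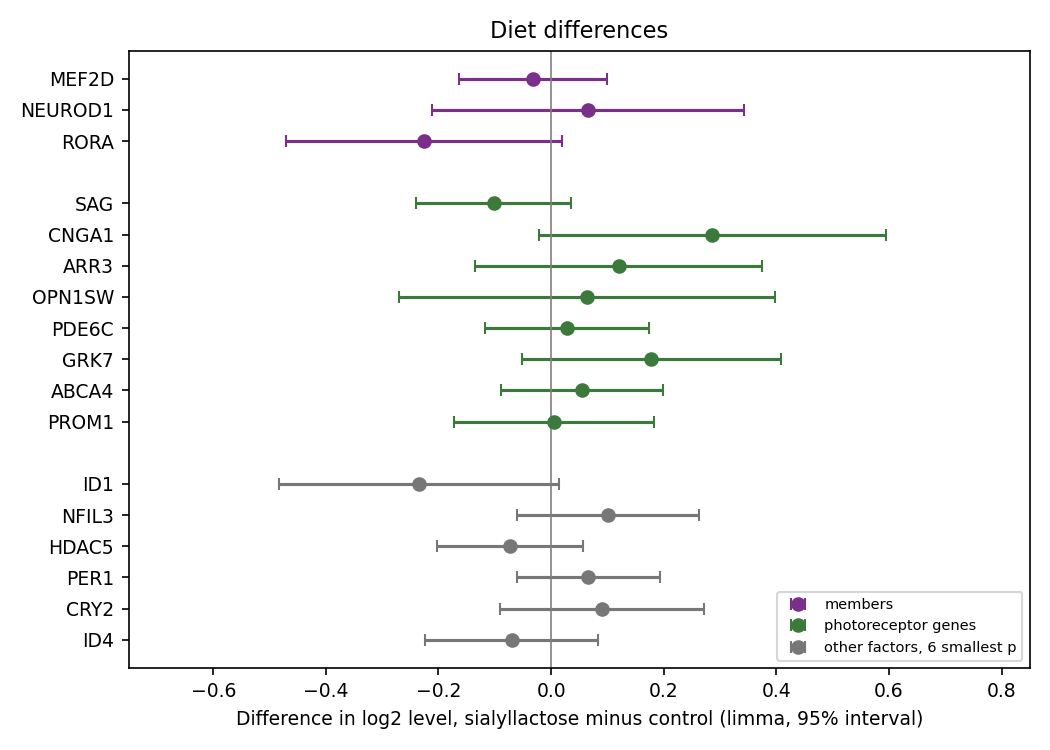
Difference in mean log2 level, sialyllactose minus control, with limma 95% intervals, for the 3 factors, the 8 tested photoreceptor genes and the 6 other factors with the smallest p. Every interval crosses 0, and those of RORA (-0.47 to 0.02) and MEF2D (-0.16 to 0.10) show the widths.

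The third question was whether piglets with more of a factor also had more of the photoreceptor genes on the same diet. Pearson r and Spearman rho were computed over the 9 arrays of each diet, with a two-sided exact permutation p. Benjamini-Hochberg adjustment ran over all 48 relations of 3 factors, 8 genes and 2 diets. No relation passed: the lowest adjusted p was 0.538 for r and 0.498 for rho, and 2 relations had an unadjusted p under 0.05 for r and 3 for rho. The labels name no array batch, so none could be used to divide the arrays.

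NEUROD1 had positive r with most photoreceptor genes. Its r was above 0 for 6 of 8 genes with sialyllactose and 7 of 8 in control, and 6 genes were positive in both diets. Its median r was 0.31 with sialyllactose and 0.13 in control, beside medians over all 5709 other tested genes of 0.01 and -0.02. Of those other genes, 51.2% had r above 0 with sialyllactose and 48.0% in control. None of the 16 relations of NEUROD1 passed, and without control replicate 7 only 2 of 8 genes had r above 0 in control. That array was the highest control in SAG, ARR3, OPN1SW, GRK7 and ABCA4, so the 8 genes were not 8 separate observations.

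The highest r of NEUROD1 in a single diet was with PROM1, prominin, a membrane protein of photoreceptor outer segment discs that other cells also make. With sialyllactose r was 0.78 (exact permutation p = 0.0112, adjusted p = 0.538, n = 9) and rho 0.73 (exact p = 0.0311, adjusted p = 0.498). In control r was 0.06 and rho 0.22 (exact p = 0.877 and 0.581). The 2 sialyllactose piglets high in NEUROD1 were also the highest of their diet in PROM1, at 7.81 for replicate 7 and 7.82 for replicate 9. Without these arrays, the farthest from the NEUROD1 median, r was 0.50, so much of the relation rested on them. The difference of r between diets, 0.72, had a permutation p of 0.108 over the diet labels (adjusted p = 0.828 over 24 relations).

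OPN1SW, the short-wave cone opsin, had the highest mean r over both diets. NEUROD1 and OPN1SW had r = 0.33 with sialyllactose (exact permutation p = 0.373, adjusted p = 0.899, n = 9) and 0.66 in control (exact p = 0.0498, adjusted p = 0.899). The rho was 0.37 with sialyllactose and 0.77 in control (exact p = 0.327 and 0.0214, adjusted p = 0.920 and 0.498). Without the 2 arrays farthest from the NEUROD1 median r was 0.55 with sialyllactose and 0.75 in control. In control OPN1SW ran from 4.62 in replicate 5, which was also lowest in NEUROD1, to 5.99 in replicate 7.

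The other photoreceptor genes had a lower mean r with NEUROD1 over both diets than OPN1SW and PROM1, an order that did not hold within each diet. With GRK7 r was 0.50 with sialyllactose and 0.17 in control, and the first became -0.06 without the 2 farthest arrays. PDE6C, the cone phosphodiesterase catalytic subunit, had negative r in both diets, -0.36 and -0.49, but its probe set was dim, with a mean of 1.65. With ABCA4, a retinoid transporter of outer segments, r was -0.24 with sialyllactose and 0.16 in control, and with ARR3 it was 0.10 in each diet. SAG and CNGA1 had r between 0.09 and 0.39. The adjusted exact p for r was 0.899 or above in each diet for these and for GRK7, PDE6C, ABCA4 and ARR3.

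MEF2D ran the other way more often than not. Its r was above 0 for 2 of 8 photoreceptor genes in each diet, 4 genes were negative in both diets and none was positive in both. The median r was -0.21 with sialyllactose and -0.22 in control, beside 0.05 and -0.09 over all other tested genes. Of those other genes, 55.9% had r above 0 with sialyllactose and 42.3% in control. Against SAG r was -0.20 with sialyllactose and -0.46 in control, and against ARR3 it was -0.12 and -0.48. Without the 2 arrays farthest from the MEF2D median the SAG values were -0.53 and -0.56 and the ARR3 values -0.17 and -0.67. With ABCA4 r was -0.47 and -0.01. PROM1 was the gene with the highest mean r, at -0.29 with sialyllactose and 0.57 in control (exact permutation p = 0.445 and 0.111, n = 9 each), followed by CNGA1 (-0.34 and 0.37) and PDE6C (0.21 and -0.32), so all 3 differed in sign between the diets. Without the 2 arrays farthest from the MEF2D median, 2 of the 16 relations changed sign. PROM1 with sialyllactose became 0.34, beside 0.69 in control, so its sign no longer differed between the diets. ABCA4 in control became 0.32, beside -0.22 with sialyllactose, so it was no longer negative in both. None of the 16 relations of MEF2D had an unadjusted exact p under 0.05 for r or rho.

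RORA had no common direction across genes and diets. Its r was above 0 for 4 of 8 genes with sialyllactose and 6 of 8 in control, with 3 genes positive in both. Over all other tested genes the share above 0 was 47.5% with sialyllactose and 51.3% in control. All 4 cone genes were negative with sialyllactose, from -0.38 to -0.06, and in control ARR3, OPN1SW and GRK7 were positive at 0.45, 0.61 and 0.36. The ARR3 value in control was -0.002 without the 2 arrays farthest from the RORA median.

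OPN1SW stood out among these. Its r with RORA was -0.26 with sialyllactose (exact permutation p = 0.509, n = 9) and 0.61 in control (exact p = 0.0807), and the rho was -0.49 and 0.80 (exact p = 0.187 and 0.0138, adjusted p = 0.919 and 0.498). Without the 2 farthest arrays r was -0.24 and 0.68. The difference between diets, -0.87, had a permutation p of 0.0249 over the diet labels, the smallest of 24, and an adjusted p of 0.596. The diets were thus not shown to differ in this relation. With ABCA4 RORA had r = 0.46 with sialyllactose and 0.04 in control, with PROM1 0.40 and 0.06, and with SAG 0.11 and 0.25. Without the 2 farthest arrays these were 0.43 and 0.67 for ABCA4, -0.07 and 0.49 for PROM1, and -0.24 and 0.58 for SAG. Of the 16 relations of RORA, 4 changed sign in that way. The lowest mean r belonged to PDE6C (-0.38 and -0.08), followed by CNGA1 (0.16 and -0.26) and GRK7 (-0.06 and 0.36).

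**Figure D3:**
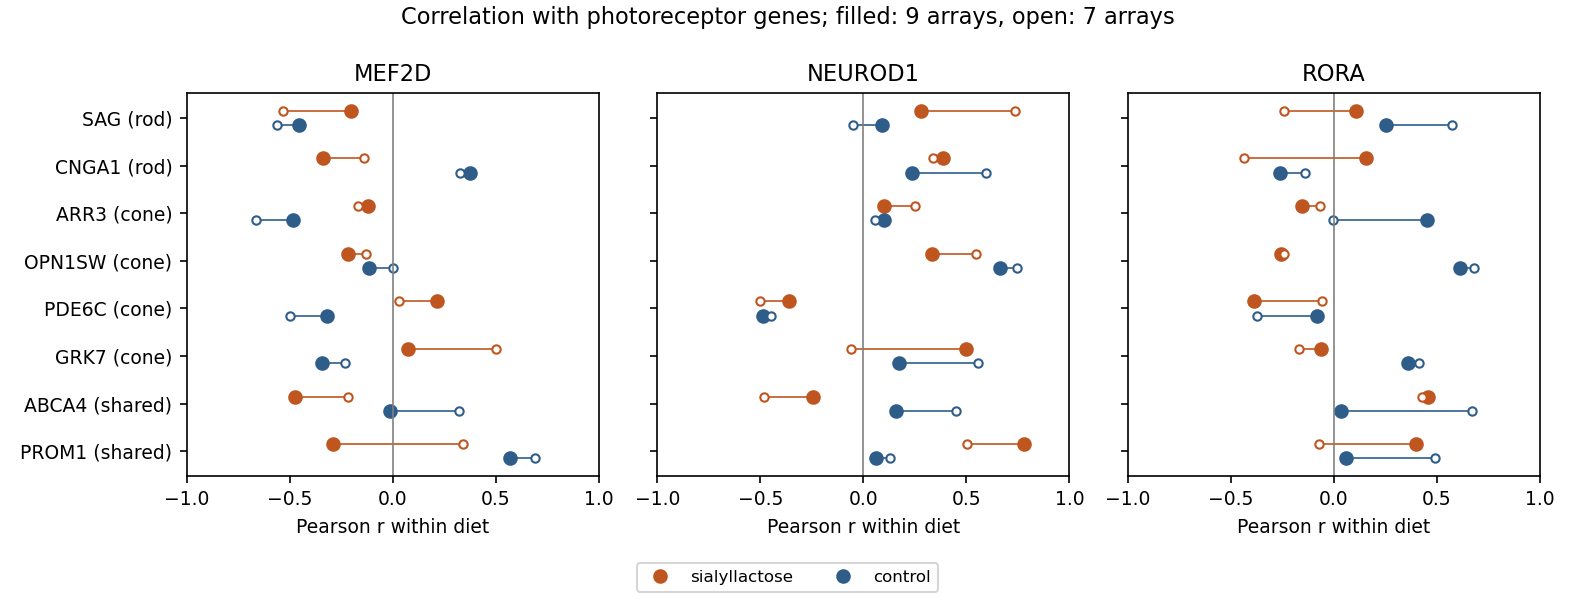
Pearson r of each factor with 8 photoreceptor genes within sialyllactose (orange) and within control (blue), filled for all 9 arrays of a diet and open without the 2 arrays farthest from the factor's median. NEUROD1 lies mostly right of 0 and MEF2D mostly left, and the open points show how far single values moved; no relation passed the adjusted test.

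**Figure D4:**
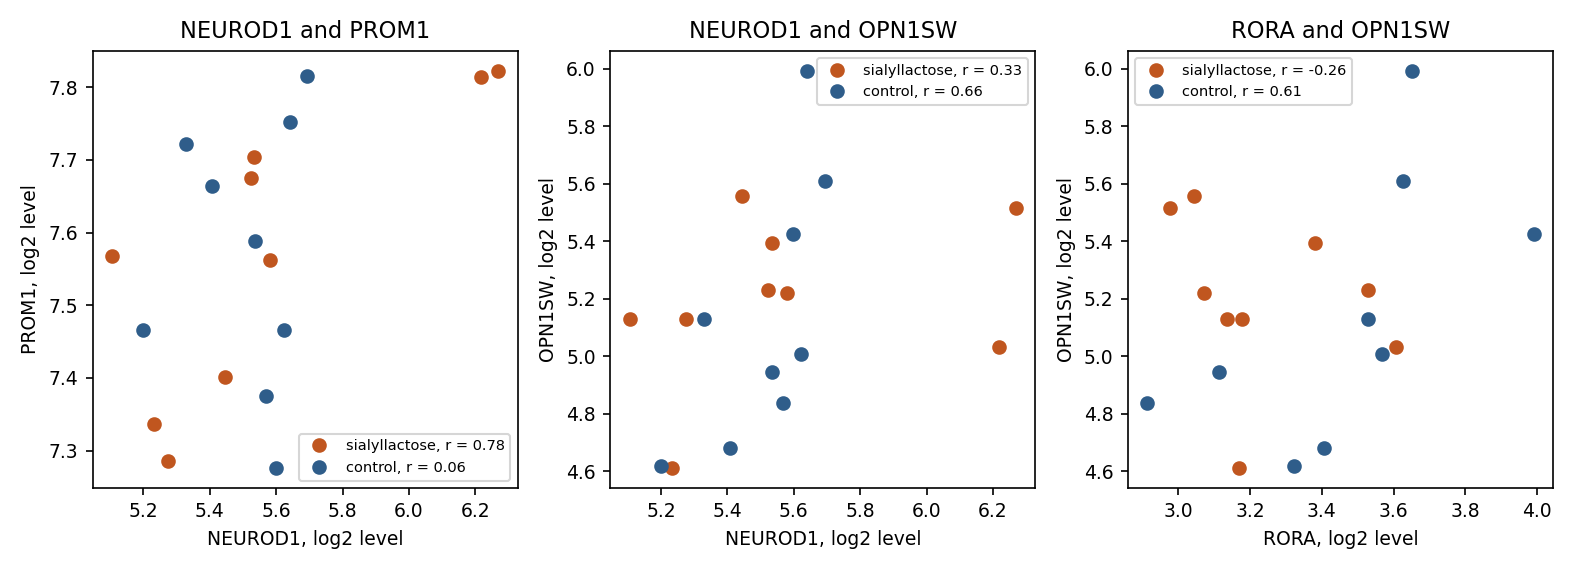
Log2 levels of NEUROD1 against PROM1, NEUROD1 against OPN1SW and RORA against OPN1SW, 1 point per array, sialyllactose in orange and control in blue, with r within each diet. The 2 sialyllactose piglets above 6.2 in NEUROD1 are those at 7.81 and 7.82 in PROM1, and RORA and OPN1SW had r = -0.26 with sialyllactose and 0.61 in control.

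Among the 3 factors themselves no relation passed the test. MEF2D and RORA had r = -0.47 with sialyllactose and -0.43 in control (exact permutation p = 0.203 and 0.241, n = 9 each). MEF2D and NEUROD1 had r = -0.32 and -0.19, and NEUROD1 and RORA 0.20 and 0.26. Over these 6 relations the lowest adjusted exact p was 0.624 for r and 0.362 for rho. Without the 2 farthest arrays the MEF2D and RORA values were -0.08 and -0.35, and the sialyllactose value of MEF2D and NEUROD1 turned to 0.35.

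RNA quality was read from the array's control probe sets as the 3' minus the 5' log2 level, which grows as RNA is shortened. For actin it was 3.27 ± 0.28 with sialyllactose and 3.15 ± 0.25 in control (exact permutation p = 0.339, n = 9 each), and for GAPDH 1.41 ± 0.15 and 1.43 ± 0.13 (exact p = 0.765). MEF2D had r = 0.55 with each measure under sialyllactose (exact p = 0.130 for actin and 0.125 for GAPDH) and 0.13 and 0.01 in control. NEUROD1 had -0.09 and -0.05 under sialyllactose and -0.51 and -0.69 in control, the last with an exact p of 0.0401 and an adjusted p of 0.476 over 12 relations, and it was 0.22 without the 2 farthest arrays. RORA stayed between -0.15 and 0.12. With the actin measure held fixed, NEUROD1 had a positive partial r with 6 of 8 photoreceptor genes under sialyllactose and 4 of 8 in control, and its median was 0.30 and 0.012, beside 0.31 and 0.13 without that adjustment. The median of MEF2D was then -0.12 under sialyllactose and -0.20 in control, beside -0.21 and -0.22, and that of RORA 0.027 and 0.19, beside 0.023 and 0.16. These partial values carry no test.

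Markers of other retinal cells, of pigment epithelium, endothelium, microglia and red blood cells, and the list of other factors, 56 genes in all, were set against the 3 factors in the same way, a comparison chosen after the data had been seen. Of 336 relations none passed (lowest adjusted exact p 0.541 for r and 0.252 for rho), and 26 had an unadjusted p under 0.05 for r. The relation with the smallest p for r was MEF2D with THY1, a ganglion cell surface protein, at -0.09 with sialyllactose and -0.87 in control (exact p = 0.00241 in control, adjusted p = 0.541). That with the smallest p for rho was RORA with MEIS2, a homeobox factor, at rho = -0.93 with sialyllactose (exact p = 0.00075, adjusted p = 0.252) and -0.52 in control (exact p = 0.162). Over the marker lists of 9 other cell types, of 1 to 9 genes each, the median r of NEUROD1 ran from -0.30 (amacrine) to 0.24 (horizontal) with sialyllactose and from -0.35 (red blood cells) to 0.48 (horizontal) in control. The values for the 2 horizontal cell markers and the 3 microglia markers (0.35) in control were above the median with photoreceptor genes, 0.13. For MEF2D these medians ran from -0.15 (bipolar) to 0.49 (red blood cells) and from -0.62 (bipolar) to 0.24 (ganglion), and for RORA from -0.32 (bipolar) to 0.44 (ganglion) and from -0.34 (endothelial) to 0.56 (horizontal).

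No relation with a relative or partner passed the test. MEF2D and MEF2A had r = 0.24 with sialyllactose and 0.20 in control. RORA and its clock target ARNTL had -0.19 and -0.48, RORA and NFIL3 -0.04 and -0.19, and RORA and DBP, a clock output factor, 0.41 and -0.04. NEUROD1 had -0.18 and -0.24 with ID1 and 0.26 and 0.55 with ID4. MEF2D and HDAC5 had 0.21 with sialyllactose and -0.73 in control (exact permutation p = 0.0255 in control, adjusted p = 0.541). Values of like size included those of NEUROD1 with NFIL3, -0.77 with sialyllactose and -0.04 in control, and with the corepressor NCOR1, 0.15 and -0.70. The coactivator NCOA1 had 0.25 and 0.68 with RORA, and 0.32 and -0.75 with MEF2D. MEF2D with ID1 had 0.75 and -0.11, and NEUROD1 with MEF2A 0.43 and -0.69 (adjusted exact p of 0.541 or above for all). The list held further values of this size. Without the 2 arrays farthest from the NEUROD1 median the NFIL3 value with sialyllactose was 0.0075. The MEF2A value in control was then 0.17.

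The genes whose pattern was most like each factor were found by the Pearson r of within-diet deviations over all 18 arrays, among 5709 other genes. They are the extremes of that ranking and carry no test. For MEF2D they were SYAP1 (r = 0.82), RPL37, a ribosomal protein (0.82), ORC4, a subunit of the origin recognition complex (0.82), PTMA, prothymosin alpha (0.76), and SRSF5, a splicing factor (0.74). SYAP1 had r = 0.94 with sialyllactose and 0.84 in control taken alone, while PTMA had 0.43 and 0.84. The most opposite genes were DDX47, an RNA helicase (-0.81), and NDUFS5, a subunit of respiratory complex I (-0.80). NDUFS5 had r = -0.02 with sialyllactose and -0.93 in control.

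For NEUROD1 they were PFKL, a phosphofructokinase of glycolysis (0.79), CMTR1, an mRNA cap methyltransferase (0.77), PDZD8 (0.73), WDR19, a ciliary transport protein (0.72), and WDR33, a polyadenylation factor (0.72). All 5 had higher r with sialyllactose, 0.82 to 0.87, where the pair of high arrays lay, than in control, 0.16 to 0.49. PROM1 ranked at place 48 for NEUROD1 (r = 0.55) and OPN1SW at place 365 (0.37). The most opposite were SLN, sarcolipin (-0.76), and LOC100738955 (-0.74).

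For RORA they were FITM1, a lipid droplet protein (0.83), PIGF, of membrane anchor synthesis (0.77), BRF2, a factor of RNA polymerase III (0.74), UTP14A (0.73) and C13H21orf59 (0.72). FITM1 had r = 0.83 in each diet. The most opposite were ARNT2, a basic helix-loop-helix factor, at -0.78 (-0.81 with sialyllactose and -0.82 in control), and LOC100518620 (-0.75). OPN1SW ranked at place 626 for RORA, and no photoreceptor gene ranked above place 1007 for MEF2D.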

How the data were processed

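Affymetrix Expression Console and RMA are named in the submitters' processing notes; settings and genome build are not given in the sources used here. Log2 levels, normalized between arrays by the authors, were taken as deposited (the log2 scale follows from the values, 0.146 to 12.8). RMA gives no detection call and hides a change shared by most genes. Columns were mapped to samples by name and groups taken from the titles.

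Control probe sets (124) and the 30% of the others with the lowest mean (7200) were left out, which left 16799. A gene was taken at its brightest tested probe set (5710 genes). Diets were compared with limma 3.58.1 in R 4.3.3 (lmFit and eBayes without trend, no covariates, Benjamini-Hochberg adjustment, threshold 0.05), tested on simulated data. Correlations used all 362880 orders of 9 arrays and diet labels all 48620 splits. The genes and lists were chosen with earlier results of these data known; the genes named follow a rule set with them: the photoreceptor genes by r, 6 other factors by p, and 5 most like and 2 most opposite genes per factor. MEF2A, ARNTL, DBP, NCOR1, NCOA1, THY1, MEIS2 and the r values of partners were named after their values were seen. The alternatives were other filters, scalings, covariates, weights, priors and tests, and leaving out each array. No sequences or coordinates were used here.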

Additional observations from a re-analysis of the deposited data

Results flagged for a closer look

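Each of the 4 probe sets of the 3 factors and the 8 photoreceptor genes was examined for a single array far from the others of its diet, 24 groups of 9 arrays in all, of which chance flags about 1 in 20. One array stood apart. ABCA4 was at 2.59 in control replicate 7, against 2.19 in the next highest control array, a gap of 0.586 of the group's whole range. The same array was the highest control in SAG (10.81), ARR3 (10.18), OPN1SW (5.99) and GRK7 (4.19), though not flagged there. It was not the highest in CNGA1 or PROM1, and in PDE6C (1.55) it lay below the control median of 1.69. ABCA4 had r = 0.16 with NEUROD1, 0.04 with RORA and -0.01 with MEF2D in control, all with this array included. The 2 high NEUROD1 arrays with sialyllactose lay close to each other, so neither was far from its nearest neighbour.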

How the results depend on the processing

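No alternative brought any of the 3 factors, the photoreceptor list, the list of other factors or any probe set past the threshold, and no correlation passed under those run. Apart from single arrays left out, the difference ran from -0.05 to -0.01 for MEF2D, 0.07 to 0.08 for NEUROD1 and -0.23 to -0.17 for RORA, with RORA's adjusted p from 0.673 to 0.836. Without single arrays it ran from -0.063 to 0.0022 for MEF2D (above 0 without control replicate 6), -0.021 to 0.12 for NEUROD1 (-0.015 without sialyllactose replicate 7, -0.021 without 9) and -0.29 to -0.16 for RORA. In the same way OPN1SW ran from -0.0017 (without control replicate 5) to 0.17, PDE6C from -0.017 (without sialyllactose replicate 8) to 0.052, and PROM1 from -0.031 to 0.041, below 0 without sialyllactose replicates 4, 5, 7 or 9 or control replicates 1, 2, 5 or 8, and at -0.0099 with array weights.

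The number of photoreceptor genes with r above 0 was 1 instead of 2 for MEF2D with sialyllactose under the 50% filter. That filter left 6 genes. It took out PDE6C (r = 0.21) and ABCA4 (r = -0.47) and left the r of the others unchanged. The number was 4 instead of 7 for NEUROD1 in control with actin held fixed. For RORA with sialyllactose it was 1 instead of 4 without the 2 farthest arrays. The cause of these changes for NEUROD1 and RORA was not tested. Without single arrays the number ran from 1 to 3 and 2 to 4 for MEF2D (sialyllactose, control), 5 to 7 and 2 to 7 for NEUROD1 and 3 to 6 and 4 to 6 for RORA. With the replicate number as a block, 0 probe sets were called and RORA's adjusted p was 0.743. The deviations of same-numbered arrays correlated between -0.11 and 0.16, over 0.1 in 3 of 9 pairs, and 3 of 9 correlated best with their own number. The labels do not say what the number stands for, and these values cannot tell whether same-numbered piglets had anything in common. Averaging tested probe sets changed nothing for the factors, which had 1 each.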
